A study of Mus musculus with 21 samples.

Results

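The 10 genes described here encode the 5 subunits of the transcription factor NF-kB (Nfkb1, Nfkb2, Rel, Rela and Relb), 2 inhibitors that bind them (Nfkbia and Nfkbie), the feedback enzyme gene Tnfaip3, the signalling adaptor gene Traf1 and the survival gene Bcl2a1b. They were chosen by name and are 10 of the 14493 genes in the deposited gene list. Raw transcript counts were summed per mouse and per B cell state, and these sums were compared between 6 states and, among light zone cells, between the phases of the cell cycle.

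The cells came from mice given 100 µg of NP-KLH, a hapten on a carrier protein, under the skin at the tail base with Sigma Adjuvant System. A single oral dose of 5 mg tamoxifen in peanut oil, given no earlier than day 6, switched on eYFP through Cre-ERT2, so every cell compared here carries that label. The draining lymph nodes of 6 mice were used, 2 killed at each of days 10, 16 and 22 after the injection. Live IgD-negative eYFP+ cells were sorted as plasma cells (PC) or as other B cells (non-PC), tagged by mouse with barcoded CD45 antibodies, pooled by fraction and captured in separate wells with a droplet method that reads transcripts from their 5′ ends. The strain, the sex, the age of the mice and the promoter behind Cre-ERT2 are not given in the sources used here, and no unimmunised mouse enters any comparison. The states are those of the deposited cell table: light zone (LZ) and dark zone (DZ) germinal centre cells, cells passing from light to dark zone (LZtoDZ), memory precursors (preMem), plasma cell precursors (prePC) and PC. The germinal centre is the site where B cells divide and mutate their receptors in the dark zone and are selected by antigen and T cells in the light zone.

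NF-kB proteins act as pairs. In resting B cells the pairs are held in the cytoplasm by inhibitors such as the products of Nfkbia and Nfkbie, and signals from the B cell receptor or CD40 lead to the loss of these inhibitors and free pairs containing Rel or Rela. A slower branch, fed by CD40 and the BAFF receptor, processes the Nfkb2 product, which then pairs with Relb. NF-kB raises the transcription of several of its own regulators, among them Nfkbia, Nfkbie, Nfkb2, Relb, Tnfaip3 and Traf1, so these genes are widely read as a record of recent signalling as well as being parts of the pathway.

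Bases before the transcription start are shown for members with a kB-like motif there, a stretch of letters of the kind that NF-kB pairs are known to bind, since the feedback described above runs through such promoters. The motif searched was GGGNNNTTCC, read as GGAANNNCCC on the other strand, in RefSeq promoter windows of 300 bases (250 before the start and 50 after it) on GRCm38.p6. Nfkb1 and Relb had no window in this table. Of the 8 members with a window, 5 held at least 1 match (Nfkbia, Nfkb2, Nfkbie, Rel and Tnfaip3) and 3 held none (Rela, Traf1 and Bcl2a1b). Over all windows 5.56% of 32851 held a match, and 6.31% of 27025 genes did. The sequences run 5′ to 3′ along the transcript and end before the transcription start, and capitals mark each match.
Nfkbia chr12:55492648-55492897 (minus strand): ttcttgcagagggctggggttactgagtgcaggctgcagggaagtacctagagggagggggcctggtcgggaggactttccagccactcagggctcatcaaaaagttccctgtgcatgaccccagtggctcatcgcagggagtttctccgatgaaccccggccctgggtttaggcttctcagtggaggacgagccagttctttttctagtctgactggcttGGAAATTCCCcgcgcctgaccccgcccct
Nfkb2 chr19:46304487-46304736 (plus strand): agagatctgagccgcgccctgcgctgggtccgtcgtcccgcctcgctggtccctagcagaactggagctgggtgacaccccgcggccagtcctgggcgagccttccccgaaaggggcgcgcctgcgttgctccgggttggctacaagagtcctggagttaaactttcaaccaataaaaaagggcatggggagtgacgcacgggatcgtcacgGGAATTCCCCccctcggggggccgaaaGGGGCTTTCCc
Rel chr11:23771026-23771085 (minus strand): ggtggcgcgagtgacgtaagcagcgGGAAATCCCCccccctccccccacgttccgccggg
Nfkbie chr17:45555569-45555628 (plus strand): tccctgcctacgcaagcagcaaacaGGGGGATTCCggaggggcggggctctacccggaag
Tnfaip3 chr10:19015411-19015447 (minus strand): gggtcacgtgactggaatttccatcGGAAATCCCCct
The match began 29 bases before the start in Nfkbia, 91 in Rel, 106 in Nfkbie and 12 in this window of Tnfaip3, and the 2 matches in the printed Nfkb2 window began 38 and 11 bases before it. The table holds more windows for both genes. The printed Tnfaip3 window held another match just after the start and a second window 1 match, and 2 further windows of Nfkb2 also held matches, and these are not printed. A match describes letters in a window and says nothing on binding in these cells.

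The 6619 cells held 68873056 UMIs (distinct transcript molecules), 6260885 to 18599219 per mouse. There were 3194 LZ, 2382 DZ, 232 LZtoDZ, 522 preMem, 47 prePC and 242 PC, with 11 to 54 LZtoDZ cells, 12 to 127 PC and 0 to 28 prePC per mouse. The median cell held 7784 UMIs in LZ, 9310 in DZ, 22505 in LZtoDZ, 5356 in preMem, 15290 in prePC and 18722 in PC, so a level in CPM (UMIs of a gene per 1000000 UMIs of a sum) is a share of transcripts and not an amount per cell. Of the PC, 234 of 242 came from the PC well, and 6 barcodes were found in both wells. In DZ against LZ all 8 light zone markers tested were lower and all 7 dark zone markers higher, all 9 plasma cell markers tested were higher in PC than in LZ, and 7 of 8 memory markers were higher in preMem. T cell markers were detected at low levels (8 genes together 94.2 to 139.9 CPM in LZ, 40.0 to 74.9 in DZ, 0 to 36.2 in PC and 15.7 to 351 in the small prePC sums), with Cd4 at 0 in DZ, LZtoDZ, preMem and PC. The 8 myeloid markers together had 207 to 313 CPM in LZ, 242 to 319 in DZ, 82.5 to 126 in LZtoDZ and 351 to 552 in PC. The part of either list in any result below was not tested.

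Levels of states are given in CPM on a scale shared by all mouse and state sums, and each range below is over mice. Levels of LZ phases, given further below, are on a separate scale shared by the phase sums, so they cannot be set against levels of states. Relb, the partner of the processed Nfkb2 product, was the member whose median was highest in LZ. Nfkb1, Rel, Rela, Nfkbie and Tnfaip3 had their highest median in preMem, and Nfkb2, Nfkbia, Traf1 and Bcl2a1b in LZtoDZ. PC held the lowest median of 8 members, DZ that of Nfkbia and prePC that of Tnfaip3. Neighbouring states in these orders mostly overlapped over mice. For Rel, the subunit of activated lymphocytes, preMem (107 to 182 CPM with a median of 146) and LZ (104 to 122 CPM with a median of 112) overlapped, LZ stood apart from DZ (74.7 to 91.3 CPM with a median of 87.9), DZ overlapped LZtoDZ (52.8 to 91.9 CPM with a median of 69.4), LZtoDZ overlapped prePC (28.5 to 70.7 CPM with a median of 60.6, 5 mice), and prePC stood apart from PC (0 to 17.9 CPM with a median of 11.2). For Nfkbia, which encodes the inhibitor IkB-alpha, every neighbouring pair in the order LZtoDZ, preMem, LZ, prePC, PC and DZ overlapped, from 259 to 396 CPM with a median of 325 in LZtoDZ down to 70.2 to 96.1 CPM with a median of 81.2 in DZ. Tnfaip3 was the most thinly counted member, with 591 UMIs in all cells, 8 in PC and 1 in prePC.

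**Figure D1:**
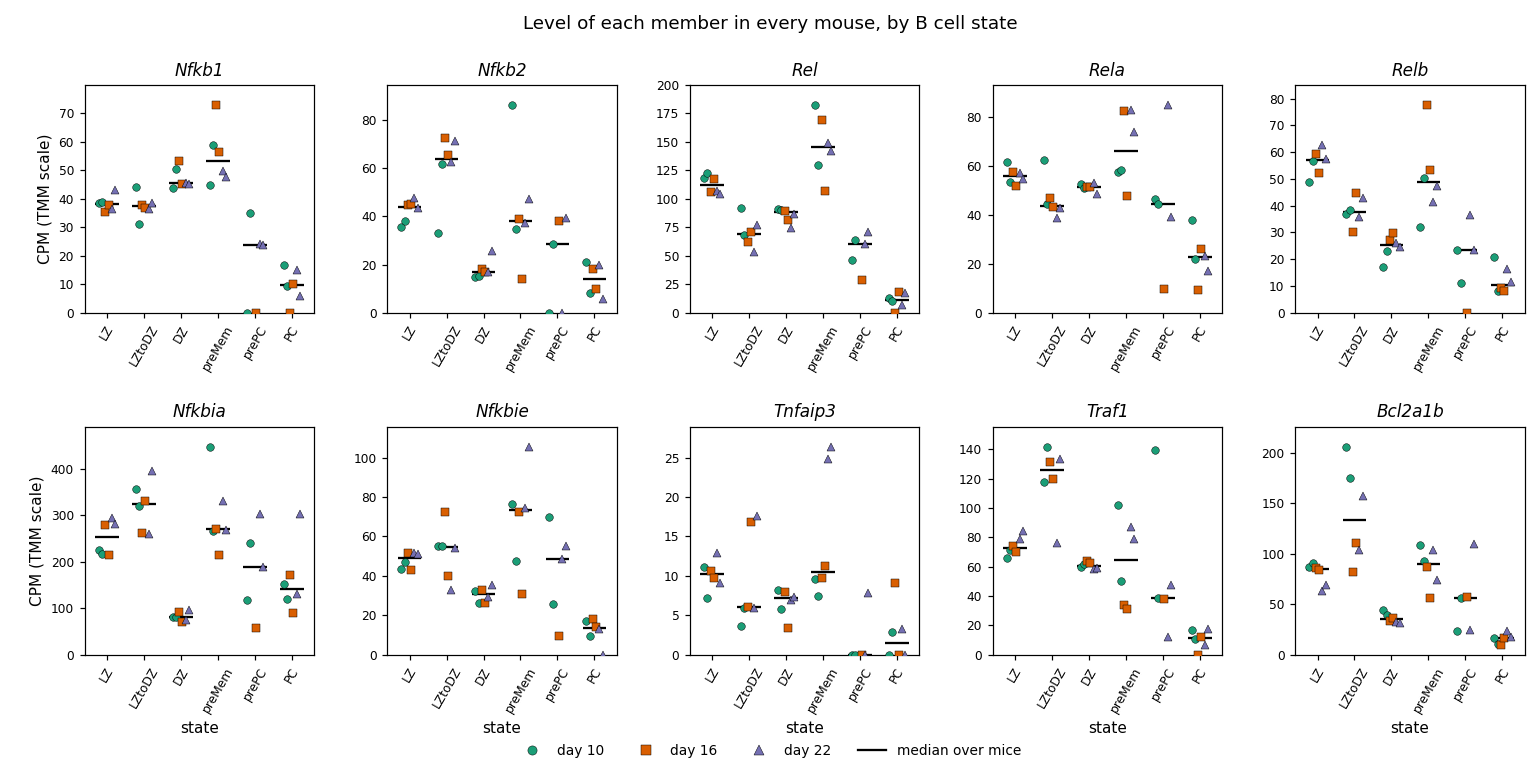
Level of each member (CPM, linear axis from 0) in every mouse, one panel per gene and one column per state; points are mice, coloured by day, and the black line is the median. Nfkbia lies at 70.2 to 96.1 CPM in DZ and 214 to 294 CPM in LZ, and Rel at 0 to 17.9 CPM in PC.

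As a share of transcripts, 8 of the 10 members were lower in dark zone cells than in light zone cells of the same mice and 1, Nfkb1, was higher. Per cell the picture can differ: Traf1, 1 of the 8, had 1746 UMIs in 2382 DZ cells and 2317 UMIs in 3194 LZ cells. Over all 9390 genes tested, 17.4% were called higher and 16.5% lower in DZ. The median log2 difference was -0.66 over the members and 0.00 over all genes tested. The direction was the same in all 6 mice for all 10 members, and the ranges of DZ and LZ did not overlap for 8 of them, Rela and Tnfaip3 being the exceptions.

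The 5 subunits did not move alike. Relb spanned 48.9 to 62.8 CPM with a median of 57.1 in LZ and 17.0 to 29.9 CPM with a median of 25.2 in DZ, every LZ sum lying above every DZ sum. The fitted log2 difference, DZ minus LZ, was -1.19 ± 0.08, where the error here and below is an SE derived from the test statistic (edgeR adjusted p = 3.2e-08). Nfkb2, whose product is processed to the partner of Relb, spanned 35.6 to 47.8 CPM with a median of 44.1 in LZ and 14.9 to 25.8 CPM with a median of 17.1 in DZ, again without overlap, and was 2.37-fold lower (log2 -1.24 ± 0.09, edgeR adjusted p = 1.1e-07). Rel was lower by less (1.32-fold, log2 -0.40 ± 0.05, edgeR adjusted p = 1.2e-05). Nfkb1, whose product gives the common partner of Rel and Rela, went the other way, from 35.3 to 42.9 CPM with a median of 38.0 in LZ to 43.5 to 53.3 CPM with a median of 45.3 in DZ (log2 0.30 ± 0.07, edgeR adjusted p = 0.00333), and every DZ sum was above every LZ sum. Rela, the most broadly expressed activating subunit, had 52.0 to 61.8 CPM with a median of 56.0 in LZ and 48.7 to 53.2 CPM with a median of 51.4 in DZ. It was lower in DZ in 6 of 6 mice but its log2 difference of -0.12 ± 0.05 did not pass (edgeR adjusted p = 0.0937). The Nfkb1 call was lost with DESeq2's test (adjusted p = 0.0521) and with cells thinned to 1 depth (adjusted p = 0.106), at log2 differences of 0.30 and 0.20.

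The inhibitors and feedback genes were lower in DZ. Nfkbia had the smallest p of the members, ranking 13th among all genes tested. Its levels in LZ were 225 and 218 (day 10), 280.0 and 214 (day 16) and 294 and 282 (day 22), and in DZ 81.7 and 80.7 (day 10), 91.0 and 70.2 (day 16) and 73.9 and 96.1 (day 22). No DZ sum came near the lowest LZ sum, and the fit gave a 3.07-fold lower level (log2 -1.62 ± 0.06, edgeR adjusted p = 1.9e-10). Nfkbie, which encodes IkB-epsilon, an inhibitor known for holding Rel, spanned 42.8 to 51.8 CPM with a median of 49.1 in LZ and 26.0 to 35.1 CPM with a median of 30.6 in DZ (log2 -0.68 ± 0.07, edgeR adjusted p = 2.1e-06). Tnfaip3, which encodes the ubiquitin-editing enzyme A20 that damps the pathway, spanned 7.18 to 12.9 CPM in LZ and 3.32 to 8.14 CPM in DZ, 2 ranges that overlapped, with a log2 difference of -0.64 ± 0.16 (edgeR adjusted p = 0.00539; 0.078 with DESeq2). Traf1, an adaptor of TNF receptors and a known NF-kB target, differed least of those lower in DZ (66.0 to 84.2 CPM in LZ, 58.2 to 64.1 CPM in DZ, log2 -0.29 ± 0.06, edgeR adjusted p = 0.0012), and its call was lost in G1 cells alone (log2 -0.22), with thinned cells (-0.21) and in 1 fit over all states (-0.29). Bcl2a1b, a mouse copy of the anti-apoptotic gene A1, spanned 63.1 to 90.4 CPM with a median of 84.8 in LZ and 31.0 to 44.2 CPM with a median of 34.8 in DZ and was 2.21-fold lower (log2 -1.15 ± 0.06, edgeR adjusted p = 2.6e-09).

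**Figure D2:**
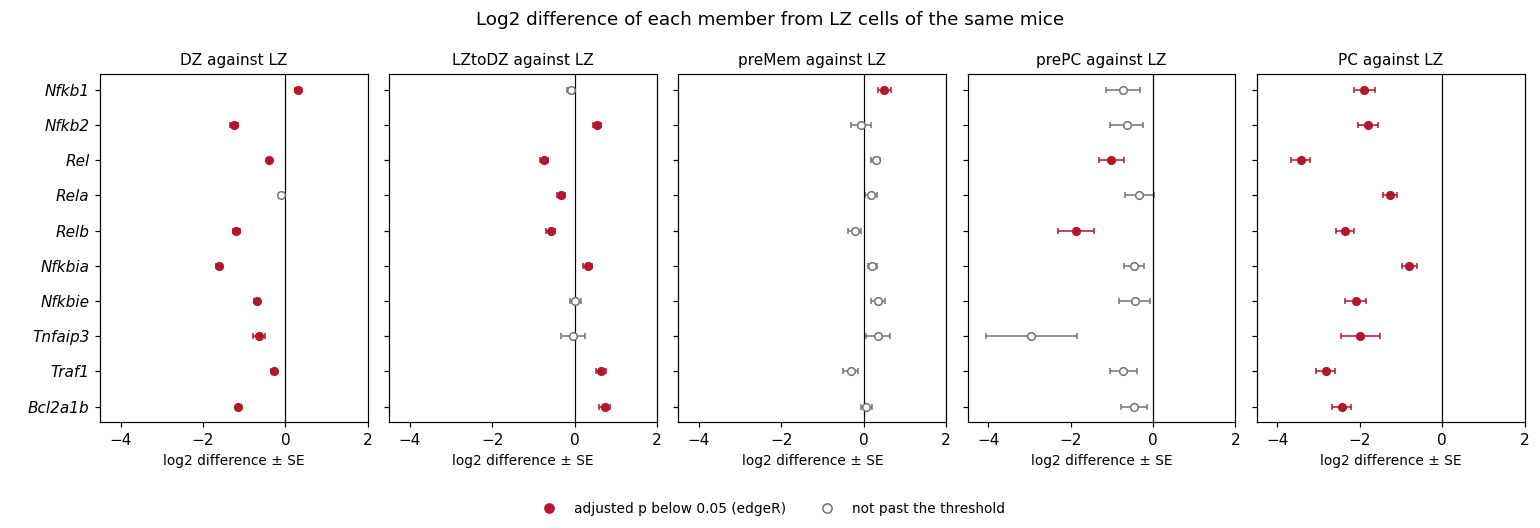
Log2 difference of each member (rows) from LZ cells of the same mice in 5 comparisons (panels), with SE bars; filled red points passed an edgeR adjusted p of 0.05 and open grey points did not. In DZ 8 members lie to the left of 0 and are filled, in LZtoDZ filled points stand on both sides, and in PC all 10 are filled on the left.

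Bcl2a1b has near-identical neighbours, and how the authors' counting assigned reads between them is not stated. On its annotated transcript 57.6% of all stretches of 50 bases also occur in Bcl2a1d and 41.1% in Bcl2a1a, and within the first 300 bases, nearest the end that was read, the shares are 29.9% and 17.5%. Bcl2a1b (chromosome 9, 89199209 to 89207827, plus strand) held 4656 UMIs, Bcl2a1d (chromosome 9, 88723285 to 88731914, minus strand) 2374 and Bcl2a1a (chromosome 9, 88956900 to 88962419, plus strand) 115. In DZ against LZ Bcl2a1d, counted apart, had a log2 difference of -1.24 ± 0.09 (edgeR adjusted p = 8.0e-08), and Bcl2a1a had too few counts to be tested there or in any comparison other than that of days. The levels of this family are therefore uncertain gene by gene. Nfkb2 (chromosome 19, 46304320 to 46312385, plus strand) overlaps Psd on the opposite strand, a gene that is also in the matrix, and the strand setting of the counting is not stated. On its own strand Bcl2a1b overlaps the protein coding model Gm29094, and Nfkb1 overlaps Gm43430, a model still to be checked by experiment. The other members lie at chromosome 3 (Nfkb1, 135584655 to 135691547), 11 (Rel, 23736847 to 23770970), 19 (Rela, 5637483 to 5648130), 7 (Relb, 19606217 to 19629438), 12 (Nfkbia, 55489410 to 55492647), 17 (Nfkbie, 45555703 to 45563169), 10 (Tnfaip3, 19000910 to 19015657) and 2 (Traf1, 34941750 to 34961772) of GRCm38 in GENCODE M21, and all 10 are annotated as protein coding.

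Genes around the members gave the following counts in DZ against LZ. The list of other targets includes the copies Bcl2a1a and Bcl2a1d, and Junb stands in it as well as among the immediate early genes. The targets Cd83, Cd86 and Il4i1, and Cd40 among the genes that feed the pathway, are also listed as light zone markers. Likewise Fas is a listed germinal centre marker, Cd44 a memory marker and Tnfrsf17 a plasma cell marker. Counts from these lists and from the marker lists therefore share genes in every comparison. Of 26 other NF-kB target genes tested, 4 were higher and 20 lower in DZ, with a median log2 difference of -0.87. Those with the smallest p were Cd83 (log2 -2.18 ± 0.05), a surface marker of light zone cells, Il4i1 (-2.42 ± 0.07), the AP-1 gene Junb (-1.10 ± 0.04) and Slamf1 (-0.96 ± 0.04), each with an edgeR adjusted p of at most 1.2e-09. Of 21 receptors, adaptors and kinases that feed the pathway, 4 were higher and 9 lower. Cd40, the receptor for T cell help, differed by -1.44 ± 0.07 (edgeR adjusted p = 1.8e-09) and Birc3, a ubiquitin ligase and itself a known target, by -0.96 ± 0.08 (edgeR adjusted p = 5.8e-07). Of 15 other inhibitors tested, 1 was higher and 6 lower, among them the nuclear IkB proteins' genes Bcl3 (-1.52 ± 0.12) and Nfkbid (-1.80 ± 0.16), with edgeR adjusted p at most 6.4e-07. Of 12 immediate early genes, which also respond to handling of cells, 0 were higher and 6 lower (Egr1 -1.54 ± 0.08, Ier2 -1.57 ± 0.08, edgeR adjusted p at most 2.5e-09). Immediate early genes thus differed beside the members, and their part in the members' difference was not tested. In G1 cells alone 8 of the 10 members were called, and with thinned cells 7.

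In LZtoDZ cells, named in the deposited table as passing from light to dark zone, members were called in both directions. Against LZ, 4 were higher (Nfkb2, Nfkbia, Traf1 and Bcl2a1b), 3 were lower (Rel, Rela and Relb) and 3 did not pass (Nfkb1, Nfkbie and Tnfaip3). Over all genes tested 27.5% were higher and 28.9% lower, 56.4% being called in either direction. Calls in both directions were thus common among all genes and not particular to the members. LZtoDZ cells were mostly in S phase by the deposited calls (68.1%, against 32.4% of LZ cells). Of 7 dark zone markers tested, 0 were higher and 4 lower than in LZ, and all 7 were lower than in DZ. Together they had 338 to 725 CPM in LZtoDZ, 830 to 938 in LZ and 1622 to 1680 in DZ, so they did not place these cells between LZ and DZ. Of 8 light zone markers 6 were lower than in LZ, and all 8 germinal centre markers were lower than in LZ.

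Among the subunits, Rel and Relb were lower in LZtoDZ as a share of transcripts, in 6 of 6 mice with no overlap. Per cell the direction can differ: Rel had 400 UMIs in 232 LZtoDZ cells and 3495 in 3194 LZ cells. In the same cells Relb had 232 and 1763 UMIs, and Rela 261 and 1717. Rel fell from 104 to 122 CPM with a median of 112 in LZ to 52.8 to 91.9 CPM with a median of 69.4 in LZtoDZ (log2 -0.75 ± 0.09, edgeR adjusted p = 7.2e-06). Relb spanned 30.2 to 44.8 CPM in LZtoDZ (log2 -0.59 ± 0.11, edgeR adjusted p = 3.6e-04). Nfkb2 went the other way from its partner Relb. Its LZtoDZ levels were 33.1 and 61.8 (day 10), 72.6 and 65.6 (day 16) and 62.5 and 71.5 (day 22), above LZ in 5 of 6 mice, with the day 10 mouse of 11 cells below (log2 0.54 ± 0.10, edgeR adjusted p = 2.9e-04). Rela was lower in 5 of 6 mice (log2 -0.34 ± 0.10, edgeR adjusted p = 0.00686), a difference that shrank to -0.05 with thinned cells (adjusted p = 0.863) and to -0.25 in the non-PC well alone (adjusted p = 0.0535). Nfkb1 had 31.2 to 44.1 CPM with a median of 37.3 and a log2 difference of -0.09 ± 0.11 (edgeR adjusted p = 0.48).

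Traf1 and Bcl2a1b were the members raised most. Traf1 levels in LZtoDZ were 118 and 141 (day 10), 132 and 120.0 (day 16) and 75.9 and 133 (day 22), against 66.0 to 84.2 CPM in LZ, so 5 of 6 mice were higher and 1 day 22 mouse lay within the LZ range (log2 0.64 ± 0.12, edgeR adjusted p = 2.5e-04). Bcl2a1b levels were 206 and 176 (day 10), 81.7 and 110.4 (day 16) and 103 and 157 (day 22), against 63.1 to 90.4 CPM in LZ, the lowest day 16 mouse falling within the LZ range (log2 0.73 ± 0.13, edgeR adjusted p = 3.0e-04). The copy Bcl2a1d differed by 1.53 ± 0.11 (edgeR adjusted p = 1.6e-08) and its ranges did not overlap (33.8 to 38.7 CPM in LZ, 78.8 to 165 CPM in LZtoDZ). Nfkbia spanned 259 to 396 CPM with a median of 325 in LZtoDZ, higher than LZ in 4 of 6 mice (log2 0.32 ± 0.11, edgeR adjusted p = 0.0195). This call was lost without day 10 mouse 2, day 16 mouse 2 or day 22 mouse 2 (adjusted p = 0.0672, 0.0791 and 0.0671) and in 1 fit over all states (0.114), while with thinned cells the difference was 0.57. Nfkbie (0.01 ± 0.13) and Tnfaip3 (-0.03 ± 0.29) did not pass (edgeR adjusted p = 0.947 and 0.94).

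Around them, 11 of 26 other NF-kB targets were higher in LZtoDZ than in LZ and 10 lower, with a median of -0.05. Batf, a transcription factor gene, was higher (2.46 ± 0.19), and the cytokine genes Ltb (-1.75 ± 0.08) and Lta (-1.56 ± 0.10) were lower. None of the 21 input genes tested was higher and 10 were lower, among them Traf5 (-1.29 ± 0.10) and Prkcb (-1.36 ± 0.15), the latter known for carrying the signal of the B cell receptor. Of 11 immediate early genes 0 were higher and 6 lower (Fos -1.15 ± 0.09, Btg2 -1.43 ± 0.11), and their part in the members' values was not tested. For each of the targets, input genes and immediate early genes named here the edgeR adjusted p was at most 1.7e-06.

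Set against DZ, the zone these cells are named as entering, LZtoDZ cells were higher in 6 members and lower in 2, beside 27.9% of all genes higher and 29.8% lower. Nfkbia (3.87-fold, log2 1.95 ± 0.08, edgeR adjusted p = 3.1e-12), Bcl2a1b (3.74-fold, log2 1.90 ± 0.12, edgeR adjusted p = 5.4e-10) and Nfkb2 (3.49-fold, log2 1.81 ± 0.12, edgeR adjusted p = 7.4e-10) differed most. Traf1 (0.95 ± 0.10), Nfkbie (0.73 ± 0.13) and Relb (0.60 ± 0.12) were also higher, each in 6 of 6 mice and with an edgeR adjusted p of at most 4.6e-04. The ranges were apart for 5 of these 6, Nfkbie overlapping. Nfkb1 (log2 -0.38 ± 0.11, edgeR adjusted p = 0.00702) and Rel (log2 -0.32 ± 0.09, edgeR adjusted p = 0.00491) were lower as shares of transcripts, each in 5 of 6 mice. Both calls were lost with thinned cells, at -0.06 for Nfkb1 and -0.37 for Rel, and that of Nfkb1 also without day 10 mouse 2 (adjusted p = 0.0511). Bcl2a1d differed by 2.80 ± 0.12 (edgeR adjusted p = 4.6e-12). For Rela (-0.22 ± 0.10) and Tnfaip3 (0.66 ± 0.33) the edgeR adjusted p was 0.079 and 0.0986, and without day 10 mouse 1 Rela was called lower (adjusted p = 0.0409). Relb was thus higher than in DZ and lower than in LZ, while Nfkb2, Nfkbia, Traf1 and Bcl2a1b were higher than in both. The comparisons with LZ and with DZ share the LZtoDZ sums.

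In memory precursors 1 member passed the test against LZ. Nfkb1 was a higher share of transcripts in preMem (44.7 to 72.7 CPM with a median of 53.0) than in LZ (35.3 to 42.9 CPM with a median of 38.0) in 6 of 6 mice and without overlap (log2 0.49 ± 0.16, edgeR adjusted p = 0.0234). No member was lower. Over all genes 14.7% were higher and 17% lower, so 1 of 10 is a share near the background. The preMem sums held 183451 to 1769643 UMIs against 2681327 to 6824665 in LZ. Nfkb1 had 173 UMIs in 522 preMem cells and 1191 UMIs in 3194 LZ cells, so its direction can differ per cell. Rel spanned 107 to 182 CPM and was higher in 5 of 6 mice (log2 0.29 ± 0.11, edgeR adjusted p = 0.0551), Nfkbie spanned 31.0 to 105 CPM (log2 0.34 ± 0.18, edgeR adjusted p = 0.152), and Nfkb2 spanned 14.1 to 86.2 CPM (log2 -0.07 ± 0.24, edgeR adjusted p = 0.889). Tnfaip3 was 9.57 and 7.43 (day 10), 9.69 and 11.3 (day 16) and 24.9 and 26.3 (day 22), both day 22 mice lying above the other 4 (log2 0.35 ± 0.30, edgeR adjusted p = 0.432). These Tnfaip3 levels rested on 33 UMIs in all preMem sums, and 1 UMI was 4.15 and 5.27 CPM in the day 22 sums. Relb differed by -0.22 ± 0.16 and Traf1 by -0.32 ± 0.18, with edgeR adjusted p of 0.333 and 0.214. For Rela (0.17 ± 0.14), Nfkbia (0.21 ± 0.11), Bcl2a1b (0.06 ± 0.14) and its copy Bcl2a1d (-0.03 ± 0.18) the edgeR adjusted p was 0.4, 0.182, 0.829 and 0.941.

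The Nfkb1 call was lost without day 10 mouse 2 (adjusted p = 0.0939) or day 16 mouse 2 (0.06), and in G1 cells alone (0.152; 93.1% of preMem cells and 54.2% of LZ cells were called G1). It was also lost with total counts (0.0646), no filter on low counts (0.0791) and thinned cells (0.27), while the log2 difference stayed between 0.37 and 0.55 under all alternatives run. Rel was called higher without day 10 mouse 2 (adjusted p = 0.0349) or day 16 mouse 2 (0.0233), and Traf1 lower without day 10 mouse 1 (0.0246). Among the genes that feed the pathway 7 of 21 were higher in preMem and 0 lower, led by the receptor TACI gene Tnfrsf13b (0.80 ± 0.10) and by Prkcb (1.23 ± 0.16) and Malt1 (1.31 ± 0.17), which carry antigen receptor signals (edgeR adjusted p at most 9.1e-06). Of 26 other targets 6 were higher and 5 lower, with log2 differences of 0.64 ± 0.06 for Ltb and -0.96 ± 0.12 for Gadd45b (edgeR adjusted p at most 3.0e-06). All 6 naive B cell markers tested were also higher in preMem, their sum being 993 to 1241 CPM against 155 to 341 in LZ. Of 11 immediate early genes 5 were higher and 2 lower, the 16 listed together having 1080 to 1446 CPM against 801 to 939 in LZ. The part of either list in these values was not tested.

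Plasma cell precursors were few, 47 cells in 5 mice, of which 28 came from day 10 mouse 2, and no day 16 mouse 1 sum could be made. Against LZ, Relb and Rel were lower as shares of transcripts and no member was higher, with 3.79% of all genes higher and 5.15% lower. Beside this, 7 of 8 memory markers were higher in prePC (together 693 to 2047 CPM against 40.7 to 92.6 in LZ), as were 4 of 6 naive B cell markers (118 to 629 CPM against 155 to 341, with 1 lower), and their part in these values was not tested. Relb in prePC was 23.3 and 11.1 (day 10), 0 (day 16) and 36.3 and 23.6 (day 22), below the LZ range (48.9 to 62.8 CPM) in all 5 mice, a log2 difference of -1.88 ± 0.44 (edgeR adjusted p = 5.9e-04). Rel in prePC was 46.6 and 63.7 (day 10), 28.5 (day 16) and 60.6 and 70.7 (day 22), also below the LZ range in all 5 (log2 -1.01 ± 0.30, edgeR adjusted p = 0.0124). These rested on 14 UMIs of Relb and 59 of Rel in 47 prePC cells. Rel had 3495 UMIs in 3194 LZ cells, so its direction can differ per cell. Without day 10 mouse 2 no member was called (Relb adjusted p = 0.15, Rel 0.143), at log2 differences of -1.49 and -1.05; the Rel call was also lost without day 16 mouse 2 (adjusted p = 0.12). In G1 cells alone and with thinned cells neither was called (adjusted p between 0.0922 and 0.343).

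The other members in prePC could not be resolved from LZ at this depth. Nfkbia, with 211 UMIs, was 116 and 240.4 (day 10), 56.9 (day 16) and 303 and 188 (day 22), around the LZ range on both sides (log2 -0.46 ± 0.24, edgeR adjusted p = 0.267). Nfkb1 was 0 and 35.0 (day 10), 0 (day 16) and 24.2 and 23.6 (day 22), below the LZ range in all 5 mice, but did not pass (log2 -0.74 ± 0.41, edgeR adjusted p = 0.329). Nfkb2 (-0.64 ± 0.39), Rela (-0.33 ± 0.35), Nfkbie (-0.44 ± 0.37), Traf1 (-0.72 ± 0.34), Bcl2a1b (-0.45 ± 0.32; Bcl2a1d -0.01 ± 0.38) and Tnfaip3 (-2.95 ± 1.1, on 1 UMI) did not pass either, with edgeR adjusted p between 0.0714 and 0.991. Traf1 was called lower without day 10 mouse 1 (adjusted p = 0.0187) and Tnfaip3 without day 22 mouse 2 (0.0278), the mouse that held its 1 UMI. The 0 levels in prePC are sums with no UMI of the gene, where 3 UMIs would be 4.78 to 69.9 CPM. The fitted median over all genes was -0.13 and that of the members -0.68. Of 25 other targets 1 was higher, Ccnd2 (2.64 ± 0.39), a D-type cyclin gene, and 7 were lower, with Cd83 (-1.89 ± 0.24), Slamf1 (-2.17 ± 0.33) and Cd86 (-2.21 ± 0.35) having the smallest p (edgeR adjusted p at most 2.3e-08). Against preMem, 6 members could be tested and Rel was called lower as a share of transcripts (log2 -1.18 ± 0.23, edgeR adjusted p = 0.00438), below the preMem range in all 5 mice, a call lost in G1 cells alone (adjusted p = 0.473). Its direction can differ per cell, with 59 UMIs in 47 prePC cells and 419 UMIs in 522 preMem cells. Nfkbie was called lower without day 10 mouse 1 (0.0419), and no member was called higher. With all mice, Nfkbie (-0.79 ± 0.29), Nfkbia (-0.58 ± 0.25), Bcl2a1b (-0.54 ± 0.32), Rela (-0.48 ± 0.29) and Traf1 (-0.39 ± 0.34) had edgeR adjusted p between 0.0649 and 0.402. In that comparison 11.6% of all genes were higher and 14.4% lower. Nfkb1, which like Nfkb2, Relb and Tnfaip3 was not tested there, was also below the preMem range in all 5 mice.

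As a share of transcripts, all 10 members were lower in plasma cells than in LZ cells. Nfkbia had 438 UMIs in PC, while the other members had from 8 (Tnfaip3) to 78 (Rela). Most of the counts by which those members could be tested were thus from LZ, where they were higher, and the count of 10 carries this limit. Over all genes tested, 21.7% were higher and 26.8% lower in PC, and the median log2 difference was -2.04 over the members and -0.13 over all genes. Ranges were apart for 8 members, the exceptions being Nfkbia and Tnfaip3, and 9 were lower in 6 of 6 mice.

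Rel differed most. It spanned 104 to 122 CPM in LZ, and in PC it was 12.6 and 9.90 (day 10), 0 and 17.9 (day 16) and 6.58 and 17.2 (day 22), 10.8-fold lower in the fit (log2 -3.44 ± 0.23, edgeR adjusted p = 6.9e-07). Its PC level rested on 36 UMIs, and the 0 of day 16 mouse 1, a sum of 12 cells, allows a level of up to 27.2 CPM (3 UMIs). Among the other subunits, Relb (7.97 to 21.0 CPM in PC, log2 -2.36 ± 0.22), Nfkb1 (0 to 16.8 CPM, -1.89 ± 0.25) and Nfkb2 (5.72 to 21.0 CPM, -1.80 ± 0.24) followed, with edgeR adjusted p of 8.8e-06, 9.8e-05 and 1.0e-04. Rela was the subunit that differed least (9.06 to 37.8 CPM with a median of 22.6, log2 -1.27 ± 0.18, edgeR adjusted p = 1.6e-04).

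Traf1 was 16.8 and 10.5 (day 10), 0 and 12.0 (day 16) and 6.58 and 17.2 (day 22), 7.12-fold lower than in LZ (log2 -2.83 ± 0.24, edgeR adjusted p = 3.3e-06), and Bcl2a1b spanned 9.06 to 23.0 CPM (log2 -2.44 ± 0.23, edgeR adjusted p = 9.8e-06; Bcl2a1d -2.16 ± 0.29). Nfkbie spanned 0 to 18.1 CPM (log2 -2.10 ± 0.25, edgeR adjusted p = 5.5e-05) and Tnfaip3 0 to 9.06 CPM on 8 UMIs (log2 -1.99 ± 0.47, edgeR adjusted p = 0.00504). Nfkbia differed least. Its PC levels were 151 and 120.0 (day 10), 172 and 89.7 (day 16) and 130.0 and 303 (day 22), lower than LZ in 5 of 6 mice and higher in day 22 mouse 2, a sum of 12 cells (log2 -0.80 ± 0.17, edgeR adjusted p = 0.0031). The same LZ sums served both comparisons, in which 8 members were called lower in DZ as well as in PC. The log2 difference from LZ was -1.62 ± 0.06 in DZ and -0.80 ± 0.17 in PC for Nfkbia, and -0.40 ± 0.05 and -3.44 ± 0.23 for Rel.

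The well and the antibody transcripts moved with this comparison. Most PC came from the PC well and most LZ cells from the other. In the PC well alone, with sums from 3 mice, 3 members had enough counts to be tested and all 3 were called lower in PC, with log2 differences of -3.77 for Rel (edgeR adjusted p = 0.00134), -3.80 for Traf1 (0.00145) and -1.18 for Nfkbia (0.0497). The LZ sums of that well held 11, 20 and 32 cells. Rel and Traf1, with 36 and 35 UMIs in all PC, had enough counts through LZ, where they were higher. Which members could be tested thus leaned towards lower calls, and the part of the well was not tested. Immunoglobulin genes took a median of 25.1% of the UMIs of a PC sum and 1.39% of an LZ sum. With immunoglobulin genes left out all 10 members were called lower and the log2 difference of Nfkbia was -0.81. Scaling by total counts alone moved the median of all genes by -0.60 on the log2 scale, called all 10 members lower and gave -1.40 for Nfkbia.

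Not every related gene was lower in PC. Of 26 other targets 9 were higher and 11 lower. Irf4, the transcription factor gene that plasma cells require (5.42 ± 0.16), and Ccnd2 (5.35 ± 0.30) were higher, and Cd83 (-5.45 ± 0.32) and Cd86 (-4.49 ± 0.23) lower (edgeR adjusted p at most 2.4e-07). Of 22 input genes 3 were higher and 11 lower, with the BCMA gene Tnfrsf17 higher (10.13 ± 0.29) and the BAFF receptor gene Tnfrsf13c (-2.25 ± 0.14) and Cd40 (-3.37 ± 0.32) lower (edgeR adjusted p at most 9.6e-06). Of 11 immediate early genes, 7 were higher and 1 lower (Fos 2.43 ± 0.14, Jun 3.70 ± 0.38, edgeR adjusted p at most 1.6e-05), and their part in the members' values was not tested. Against prePC, Nfkbia alone passed the filter on low counts and did not differ past the threshold (log2 -0.63 ± 0.32, edgeR adjusted p = 0.159), so 0 members were called, beside 16.5% of all genes higher and 15% lower. DESeq2 also called 0 of that 1 member there. Rel and Bcl2a1b, not tested there, were lower in PC than in prePC in all 5 mice without overlap, but these gaps rested on few UMIs. The lowest prePC level of Bcl2a1b, 23.3 CPM in day 10 mouse 1, was 1 UMI, and its highest PC level was 23.0 CPM. For Rel the lowest prePC level, 28.5 CPM in day 16 mouse 2, was 3 UMIs. The PC level of 0 for Rel in day 16 mouse 1 allows up to 27.2 CPM.

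Within LZ the members' shares of transcripts also differed by cell cycle phase, as called in the deposited table (1730 G1, 1036 S and 428 G2M cells). In S against G1, 7 members were lower and 0 higher, with 20.3% of all genes higher and 20.7% lower, and the 7 were each lower in at least 5 of 6 mice. Nfkbie differed most. Its G1 levels were 67.3 and 63.1 (day 10), 63.0 and 62.8 (day 16) and 74.3 and 73.7 (day 22), and its S levels 33.2 and 45.6 (day 10), 47.1 and 34.6 (day 16) and 38.7 and 41.6 (day 22), so every S sum lay below every G1 sum (log2 -0.75 ± 0.09, edgeR adjusted p = 3.2e-06). Rel (128 to 148 CPM with a median of 144 in G1, 98.2 to 123 CPM with a median of 112 in S) and Traf1 (86.1 to 101 CPM with a median of 90.0 in G1, 60.8 to 81.7 CPM with a median of 74.7 in S) were also apart, with log2 differences of -0.36 ± 0.06 and -0.32 ± 0.06 (edgeR adjusted p = 4.5e-05 and 6.6e-04). Relb (-0.48 ± 0.09), Nfkb2 (-0.45 ± 0.10), Nfkbia (-0.40 ± 0.06) and Bcl2a1b (-0.37 ± 0.07; Bcl2a1d -0.29 ± 0.10) were also lower (edgeR adjusted p at most 0.0231), and the ranges of these 4 members overlapped between the phases. With DESeq2's test the calls of Nfkb2 and Traf1 were lost (adjusted p = 0.068 and 0.0593). Nfkb1 (-0.22 ± 0.09), Rela (-0.14 ± 0.08) and Tnfaip3 (-0.46 ± 0.19) did not pass (edgeR adjusted p = 0.0645, 0.181 and 0.0633), though Tnfaip3 was called lower without day 16 mouse 1 (adjusted p = 0.0442).

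In G2M against G1, 5 members were lower and 0 higher, against 21.2% of all genes higher and 18.5% lower. Bcl2a1b spanned 75.9 to 132 CPM with a median of 105 in G1 and 54.6 to 81.4 CPM with a median of 63.1 in G2M, lower in 6 of 6 mice (log2 -0.68 ± 0.11, edgeR adjusted p = 6.8e-05; Bcl2a1d -0.49 ± 0.12, 0.00317). Nfkbie spanned 38.6 to 61.8 CPM with a median of 45.6 in G2M, wholly below its G1 range (log2 -0.54 ± 0.11, edgeR adjusted p = 6.9e-04). Rela (-0.33 ± 0.10), Traf1 (-0.33 ± 0.10) and Rel (-0.32 ± 0.08) were lower in 6 of 6 mice with overlapping ranges (edgeR adjusted p = 0.0186, 0.0115 and 0.00492), and with thinned cells Traf1 was called (-0.41) and not Rel (log2 -0.24) or Rela (-0.10). The Rela call was lost without day 16 mouse 1, day 16 mouse 2 or day 22 mouse 1, and the Traf1 call without day 10 mouse 2 (adjusted p between 0.0538 and 0.0613). Both calls were also lost with DESeq2's test (adjusted p = 0.108 for Rela and 0.0582 for Traf1). Nfkb2 (38.6 to 58.2 CPM with a median of 51.7 in G2M, log2 -0.01 ± 0.13), Relb (58.6 to 81.5 CPM with a median of 73.7, 0.10 ± 0.09) and Nfkbia (241 to 404 CPM with a median of 313, 0.04 ± 0.06), all lower in S, had edgeR adjusted p of 0.977, 0.367 and 0.629 here. Nfkb1 (-0.21 ± 0.13) and Tnfaip3 (-0.03 ± 0.24) did not pass either (edgeR adjusted p = 0.219 and 0.951). Nfkb2, Relb, Nfkbia, Nfkbie and Tnfaip3 were each lower in S than in G2M in 5 of 6 mice. Bcl2a1b was higher in S than in G2M in 6 of 6 mice and Rela in 5 of 6. The differences between S and G2M were not tested, and both phases were set against the same G1 sums.

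**Figure D3:**
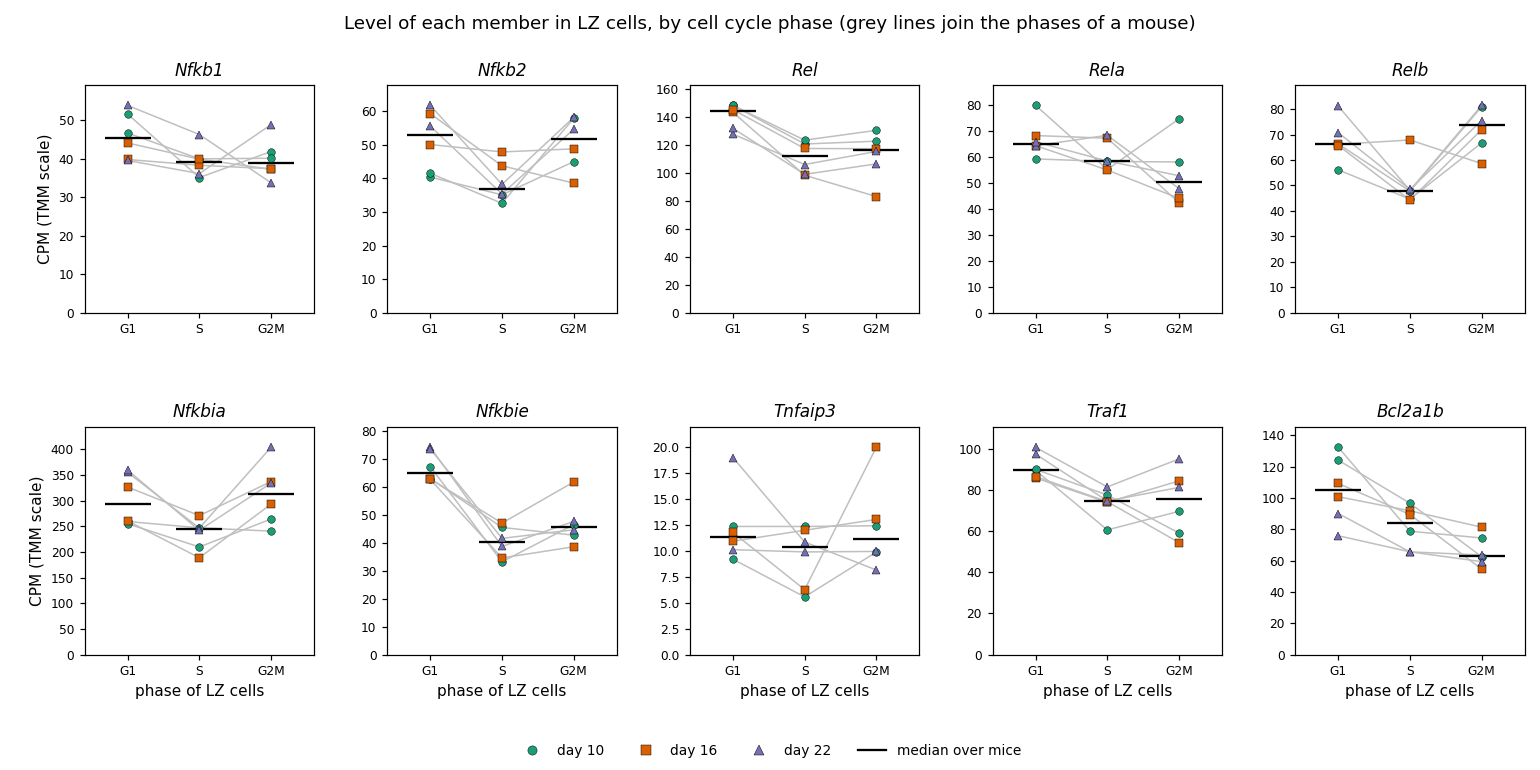
Level of each member (CPM, linear axis from 0) in LZ cells called G1, S and G2M, one panel per gene; grey lines join the phases of a mouse, points are coloured by day, and black lines are medians. Nfkbie has medians of 65.2 in G1, 40.2 in S and 45.6 in G2M, while Nfkbia has 293, 244 and 313.

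The median LZ cell held 6573 UMIs in G1, 9947 in S and 11555 in G2M, so depth per cell moved with the phase. A lower share therefore need not be fewer UMIs per cell. Rel had 1651 UMIs in 1730 G1 cells, 1222 in 1036 S cells and 622 in 428 G2M cells, and Nfkbie had 803, 444 and 248. With each cell thinned to 4727 UMIs, 7 members were again called in S and 3 in G2M, and thinned values are shares too. Of 25 other targets 14 were lower in S and 1 higher (Il4i1 -1.43 ± 0.06, Cd83 -0.68 ± 0.04), and 12 of 21 input genes were lower and 0 higher (Tnfrsf13c -0.39 ± 0.03, Birc3 -0.72 ± 0.09). Of 11 immediate early genes 7 were lower and 1 higher (Zfp36 -0.58 ± 0.04), and for all these named genes the edgeR adjusted p was at most 7.3e-06. All 8 light zone markers tested were lower in S, and their part in the members' values was not tested. In G2M against G1, 14 of 25 other targets were lower and 2 higher, with log2 differences of -1.16 ± 0.07 for Ltb and -0.95 ± 0.06 for Cd83 (edgeR adjusted p at most 5.5e-09).

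In LZ cells few differences between days passed the test. Day 22 against day 10, with 2 mice each and the spread estimated over all 6, called 1 member, Bcl2a1b, lower and none higher, against 0.851% of all genes lower and 0.666% higher. Bcl2a1b stood at 86.9 and 90.4 CPM on day 10, 84.1 and 85.5 on day 16 and 63.1 and 69.0 on day 22, and both day 22 mice lay below the other 4 (log2 -0.42 ± 0.07, edgeR adjusted p = 0.0311). Its copy Bcl2a1d was 37.8 and 38.7 CPM on day 10 and 33.8 and 34.2 on day 22 (log2 -0.16 ± 0.10, edgeR adjusted p = 0.513), and Bcl2a1a was 0.35 and 0.54 on day 10 and 2.56 and 3.80 on day 22 (log2 2.66 ± 0.59, edgeR adjusted p = 0.0738). The Bcl2a1b call did not hold when any 1 of the 6 mice was left out (adjusted p between 0.0588 and 0.247), nor with DESeq2's test (0.108), total counts (0.0592) or thinned cells (0.0747), though its log2 difference stayed between -0.62 and -0.36. Nfkbia was 218 and 225 CPM on day 10, 214 and 280.0 on day 16 and 282 and 294 on day 22 (log2 0.39 ± 0.11, edgeR adjusted p = 0.134), and was called higher without either day 16 mouse (adjusted p = 0.032 and 0.0312). Nfkb2 was 35.6 and 37.9 on day 10 and 43.5 and 47.8 on day 22 (log2 0.31 ± 0.10, edgeR adjusted p = 0.198). Traf1 was 66.0 and 71.3 on day 10 and 78.8 and 84.2 on day 22 (log2 0.25 ± 0.08, edgeR adjusted p = 0.182). Both were higher in each day 22 mouse than in each day 10 mouse without passing. The other 6 members did not pass, Rel having the lowest edgeR adjusted p of them (0.288, log2 -0.18 ± 0.07). For Nfkb1 (0.04 ± 0.12), Rela (-0.02 ± 0.10), Relb (0.18 ± 0.11), Nfkbie (0.18 ± 0.11) and Tnfaip3 (0.35 ± 0.26) it lay between 0.482 and 0.99. Junb (0.47 ± 0.07) and Gadd45b (0.56 ± 0.09) were the 2 of 27 other targets called, both higher (edgeR adjusted p = 0.0164 and 0.0157). Of 12 immediate early genes Egr1 (log2 0.86 ± 0.08, edgeR adjusted p = 0.00207) and Junb were higher, and 0 of 22 input genes were called.

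**Figure D4:**
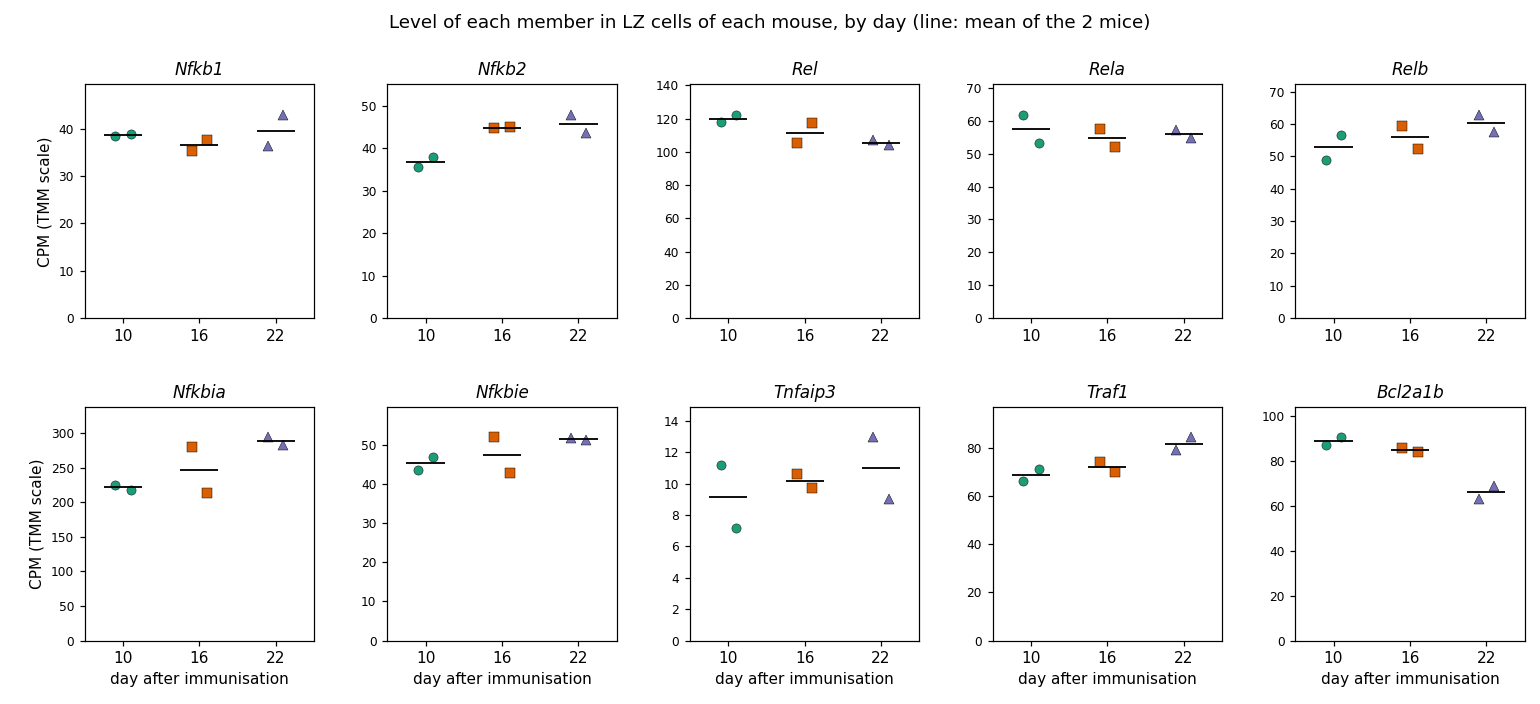
Level of each member (CPM, linear axis from 0) in LZ cells of each mouse by day after immunisation, 2 points per day with their mean as a line. Bcl2a1b is at 86.9 and 90.4 on day 10 and 63.1 and 69.0 on day 22; Nfkbia is at 218 and 225 on day 10 and 282 and 294 on day 22.

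Over the 31 mouse and state sums of at least 10 cells, which share mice, wells and depth, the members fell into patterns that are described here by Pearson's r of log2(CPM + 1), with no test. Rel and Rela had an r of 0.94, and 0.82 over the 25 sums without PC. Nfkb2, Nfkbia and Bcl2a1b had r of at least 0.74 with each other without PC (Nfkb2 and Nfkbia 0.83, Nfkbia and Bcl2a1b 0.87, Nfkb2 and Bcl2a1b 0.74). Nfkb1 and Traf1 had 0.85 with PC and -0.58 without, and Nfkb1 and Nfkb2 0.44 and -0.45, so the sign of both differed with and without the PC sums. Among 4550 genes of at least 20 CPM on average, other members left out, those most like a member over the 31 sums included Lpxn (0.96) for Nfkb1, Ebf1 (0.98) for Rel and Fam3c (0.96) for Rela. For Relb they were Cd86 (0.86), Cd83 (0.84), Rraga (0.84), the first 2 being costimulatory and activation markers of B cells. They were Junb (0.83) for Nfkbia, Birc3 (0.92) for Nfkbie, Cr2 (0.81) for Tnfaip3, Marcksl1 (0.96) for Traf1, and among those for Bcl2a1b were Icam1 (0.88) and Bcl2a1d (0.88).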

How the data were processed

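The authors deposited a table of UMI counts (whole numbers, 14493 genes by 6619 cells) and a cell table with each cell's mouse, state and phase. Reads were processed with Cell Ranger and Seurat on mm10/GRCm38, per the submitters' processing notes, which give no versions. The filters on cells, the treatment of doublets and the strand setting are not given in the sources used here, and no doublet caller was run. The matrix sum of each of the 6619 cells matched its listed UMI total.

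Counts were summed per mouse (the replicate, 6 mice) and state or LZ phase, from at least 10 cells, or 3 where prePC entered. edgeR 4.0.16 in R 4.3.3 tested each comparison over all genes that passed filterByExpr, with TMM scaling, quasi-likelihood F tests (two-sided), the mouse as a block and Benjamini-Hochberg adjustment at 0.05. The block is paired by design, since each mouse gave both groups, and days were compared without it. The SE of a log2 difference was its absolute value divided by the square root of its F statistic, so it restates the test and is no separate estimate. CPM used TMM factors over all state sums for states and, in a separate run, over all LZ phase sums for phases. Alternatives were DESeq2 1.42.0, other scaling, no filter, more cells per sum (20, or 5 with prePC), no block, immunoglobulin genes left out, 1 well, G1 cells, 1 fit over all states and each mouse left out. Thinning each cell to 4727 UMIs (662 shallower cells left out) was chosen after seeing the data. The fits were tested on simulated data. The rule for named genes took the members tested in each comparison, with Bcl2a1a and Bcl2a1d beside Bcl2a1b where tested, and up to the 4 called genes of lowest p from each list of pathway genes. The members and lists were chosen with earlier results of these data known. Some genes that these rules select are not reported here.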

Additional observations from a re-analysis of the deposited data

Results flagged for a closer look

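In 10 of 90 groups of mice, each 1 member in 1 state or LZ phase, 1 mouse stood far from the rest by the gap between it and its nearest neighbour; chance alone marks about 1 group in 20. In LZtoDZ, day 10 mouse 1, a sum of 11 cells, was lowest for Nfkb2 (33.1 CPM from 9 UMIs, the next mouse 61.8) and highest for Rela (62.5 CPM, next 46.9), and day 22 mouse 1, a sum of 54 cells, was lowest for Traf1 (75.9 CPM from 102 UMIs, next 118). Nfkb2 in DZ was highest in day 22 mouse 2 (25.8 CPM from 133 UMIs, next 18.1). Among LZ cells, Relb in S was highest in day 16 mouse 1 (67.9 CPM, next 48.4), Traf1 in S was lowest in day 10 mouse 1 (60.8 CPM, next 74.3), and Tnfaip3 in G1 was highest in day 22 mouse 1 (19.0 CPM, next 12.3). The other 3 rested on few UMIs: Traf1 in prePC of day 10 mouse 1 (139.7 CPM from 6 UMIs in 3 cells, next 47.1), Tnfaip3 in prePC of day 22 mouse 2 (7.85 CPM from 1 UMI) and Tnfaip3 in PC of day 16 mouse 1 (9.06 CPM from 1 UMI).

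Relb in preMem against LZ moved opposite ways between days. The mean log2 difference was -0.38 on day 10, 0.20 on day 16 and -0.43 on day 22, each pair of mice on 1 side of 0. These were 2 of 180 pairs of days compared, and the difference between days was not tested.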

How the results depend on the processing

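The counts of members called in DZ against LZ, in LZtoDZ against LZ or DZ and in S against G1 stayed within 1.5 times of 9, 7, 8 and 7 under all alternatives run; G1 cells alone were not run for LZtoDZ. Leaving out each mouse in turn gave 9 for DZ against LZ, 6 to 7 and 7 to 9 for LZtoDZ against LZ and DZ, 1 to 2 for preMem, 0 to 3 for prePC against LZ (0 without day 10 mouse 2), 1 to 2 for prePC against preMem, 10 for PC against LZ, 0 to 2 for PC against prePC, 7 to 8 for S, 4 to 5 for G2M and 0 to 1 for day 22 (0 without either day 10 mouse or either day 22 mouse). Total counts without a composition factor gave 0 for preMem (1 in the main analysis), 1 for PC against prePC (0) and 0 for day 22 (1). DESeq2's test gave 3 for G2M (5) and 0 for day 22. No filter on low counts gave 0 for preMem, 3 for prePC against preMem (1) and 4 for PC against prePC, and more cells per sum gave 2 and 2 for the last 2 comparisons. Immunoglobulin genes left out gave 3 for preMem and 2 for day 22. The analysis of 1 well gave 3 for PC against LZ (10, with 3 members tested) and 1 for PC against prePC. G1 cells alone gave 0 for preMem, 0 for prePC against LZ (2), 0 for prePC against preMem and 2 for day 22. Thinned cells gave 0 in those first 3 comparisons, 3 for G2M and 0 for day 22. The 1 fit over all states gave 2 for preMem, 5 for prePC against preMem and 6 for PC against prePC. Without the replicate block for mice preMem had 2, and the block moved no other count of members by over 1.5 times. These alternatives differ in cells, mice and genes tested, and the cause of each change was not tested. Of 1550 alternative values for the 97 members and comparisons tested, 48 lost a call and 27 gained one; 35 changed sign, all uncalled in both fits, by at most 0.238 on the log2 scale, and 0 changed sign with a call. The count of all genes called moved by over 1.5 times in DZ against LZ (3181 to 1606 with DESeq2's test, 1428 in G1 cells, 1416 in 1 fit and 1991 thinned), LZtoDZ against LZ (4554 to 2521 thinned) and DZ (4606 to 2463 thinned), preMem (2667 to 1445 in G1 cells and 1482 thinned), prePC against LZ (689 to 458 with DESeq2's test, 322 in G1 cells, 1304 in 1 fit, 293 thinned and 332 without day 10 mouse 2) and preMem (670 to 47 in G1 cells, 1756 in 1 fit, 97 thinned, 131 without day 10 mouse 2, 266 without day 16 mouse 2 and 411 without day 22 mouse 2), PC against LZ (4111 to 743 in 1 well and 2336 thinned) and prePC (892 to 1490 with no filter, 204 in 1 well, 2269 in 1 fit, 407 thinned and 472 without day 10 mouse 2), S (3333 to 1697 with DESeq2's test and 2134 thinned), G2M (2871 to 1893 with DESeq2's test and 1683 thinned) and day 22 (148 to 276 with no filter, 420 without immunoglobulin genes, 64 without day 10 mouse 2, 25 without day 22 mouse 1 and 80 without day 22 mouse 2). Depth limits prePC most, with 33547 to 619482 UMIs per sum.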

Other observations

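Pathway genes outside the members also separated LZtoDZ from DZ. Of 26 other NF-kB targets tested, 15 were higher in LZtoDZ and 6 lower. The largest differences among those of lowest p were those of the cyclin gene Ccnd2 (log2 7.01 ± 0.24), the transcription factor genes Batf (3.81 ± 0.15) and Myc (3.16 ± 0.11), with edgeR adjusted p at most 2.3e-12. Of 21 input genes 2 were higher, Cd40 (1.54 ± 0.10) and Birc3 (1.32 ± 0.15), and 9 lower, among them Traf5 (-1.56 ± 0.10) and Malt1 (-1.18 ± 0.16), with edgeR adjusted p at most 7.7e-06. Bcl3, which encodes a nuclear partner of the Nfkb1 and Nfkb2 products, was among 5 of 14 other inhibitors that were higher (log2 2.03 ± 0.23, edgeR adjusted p = 6.8e-07).

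In PC against prePC, where Nfkbia was the 1 member with enough counts, 6 of 15 other targets were higher and 4 lower. Irf4 was higher (log2 3.0 ± 0.35, edgeR adjusted p = 8.9e-05) and Ltb, which encodes a membrane lymphotoxin subunit, lower (log2 -3.32 ± 0.34, edgeR adjusted p = 4.3e-05). The BCMA gene Tnfrsf17 was higher (log2 3.94 ± 0.46, edgeR adjusted p = 8.9e-05) and the BAFF receptor gene Tnfrsf13c lower (log2 -1.34 ± 0.24, edgeR adjusted p = 0.00126). In prePC against preMem 5 of 15 other targets were lower and 1 higher, Cd86 (log2 -2.05 ± 0.32, edgeR adjusted p = 0.00145) and Slamf1 (log2 -2.0 ± 0.32, edgeR adjusted p = 0.00151) having the lowest p.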
